A study of Mus musculus with 41 samples.

Results

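Interneurons of the hippocampus release the inhibitory transmitter GABA, and 9 genes used as their markers were read here in 41 male mice that had been ranked by learning and memory. The genes were Gad1, Gad2, Sst, Pvalb, Vip, Cck, Calb2, Reln and Lhx6. They were chosen by name, and all probe sets whose platform annotation gave 1 of these symbols were taken. These were 9 of 18194 genes with such a symbol, and 13 of 45037 probe sets other than array controls. Gad1, Gad2, Reln and Lhx6 had 2 probe sets each and the other genes 1. The filter on dim probe sets left 22519 of all probe sets and 12 of the 13. The probe set that it removed was the dimmer one of Reln.

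The mice were inbred C57BL/6J males whose tests began at an age of 10 weeks. The ranking used 11 parameters from 5 tests, which were the Barnes maze at 10 to 11 weeks, a radial maze at 12 to 14 weeks, a T-maze at 15 to 19 weeks, fear conditioning at 33 weeks and passive avoidance at 37 to 38 weeks. Other behavioural tests, such as open field, rotarod and forced swimming, were run on the same mice. Hippocampi were collected for RNA once 1 month had passed since the testing ended, and each mouse gave 1 array. The question behind the ranking was which genes go with general cognitive ability in mice of the same genotype. A mouse was called low (8 mice), medium (12) or high (5) where 2 ranking systems gave it the same class, while 14 mice were ranked inconsistently and 2 lacked complete data. All mice shared strain and sex and were put through the tests, and 39 had complete data. Each p-value below measures the spread between mice. The arrays read a whole hippocampus, so fewer interneurons and less RNA per interneuron cannot be told apart.

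GABA is made from glutamate by 2 decarboxylases, and nearly every GABAergic interneuron carries both. Subtypes differ in what else they make: some hold the calcium-binding proteins parvalbumin or calretinin, and others release the peptides somatostatin, vasoactive intestinal peptide or cholecystokinin. Several of the markers are shared with other cells, since pyramidal cells also make cholecystokinin, mossy cells of the mouse dentate gyrus make calretinin, and Cajal-Retzius cells make reelin.

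The 3 neuropeptide genes are widely used subtype labels, and Sst is the textbook target of CREB, the factor that binds the cyclic AMP response element. The 120 bases before their start sites in the RefSeq table (GRCm38.p6) are shown to set their upstream letters side by side, given the levels reported below. They lie at chr16:23890845-23890964 on the minus strand for Sst, chr10:5639098-5639217 on the plus strand for Vip and chr9:121495695-121495814 on the minus strand for Cck, each in promoter sequence upstream of the annotated gene. Capitals mark the core motif TGACG or its reverse complement CGTCA, and in Sst these overlap as the full palindrome TGACGTCA.
Sst: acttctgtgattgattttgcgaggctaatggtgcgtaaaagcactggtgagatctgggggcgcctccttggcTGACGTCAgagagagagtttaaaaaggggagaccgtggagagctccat
Vip: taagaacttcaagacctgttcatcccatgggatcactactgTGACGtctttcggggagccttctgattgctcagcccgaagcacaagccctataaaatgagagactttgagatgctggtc
Cck: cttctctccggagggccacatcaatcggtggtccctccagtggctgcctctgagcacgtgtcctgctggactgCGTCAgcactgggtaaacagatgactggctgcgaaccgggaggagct
TGACG was searched on both strands. It stood in 4 of 11 windows of the 8 member genes that had a table entry, 1 each of Sst, Vip, Cck and Gad2, and in 11.7% of 32851 windows of the same length. The full palindrome stood in the Sst window alone among these genes and in 1.24% of all windows. Calb2 was not matched in the table. A match of letters describes the sequence and is not a measured binding site.

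Levels below are log2(intensity + 16) after quantile normalization over the 41 arrays, a scale on which a difference of 1 is about a doubling and changes of dim genes are understated. They are compared between arrays and never between genes, since probe sets differ in brightness at the same RNA amount. Medians of the arrays ran from 22.4 to 55.2 before normalization. Bacterial and phage spike-in controls, which are added to every sample, split the arrays into 3 clusters of 8, 10 and 23 arrays, and the labels name no batch. A list of 10 measured choroid plexus genes split them again, with 11 bright arrays at 7.88 or above and 30 at 6.66 or below. The bright arrays were 3 low, 4 medium, 3 inconsistent and 1 incomplete, and none of the high group.

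Medium replicate 9 stood apart from the other 40 arrays and went against the label of hippocampus. Its mean over 8 markers of dentate granule cells, the principal cells of the dentate gyrus, was 6.15, while the other arrays lay between 7.75 and 8.31. Its neocortex list, of 7 measured genes, stood at 9.48 against 7.75 to 8.32. Its striatum list, of 5 measured genes, stood at 8.78 against 7.52 to 7.92. Its thalamus and habenula list, of 4 measured genes, stood at 8.07 against 7.23 to 7.69. By smaller margins its Cajal-Retzius list, of 2 measured genes, was above the others (7.65 against 7.21 to 7.58). Its pyramidal list, of 7, was below them (9.47 against 9.53 to 9.90). The difference between 3′ and 5′ Actb control probe sets, a sign of RNA quality, was 1.10 on this array and 0.42 to 0.61 on the rest. The same difference for Gapdh did not stand apart, at -0.50 on this array and -0.60 to -0.31 on the rest. Results that rest on this array are given with and without it.

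**Figure D1:**
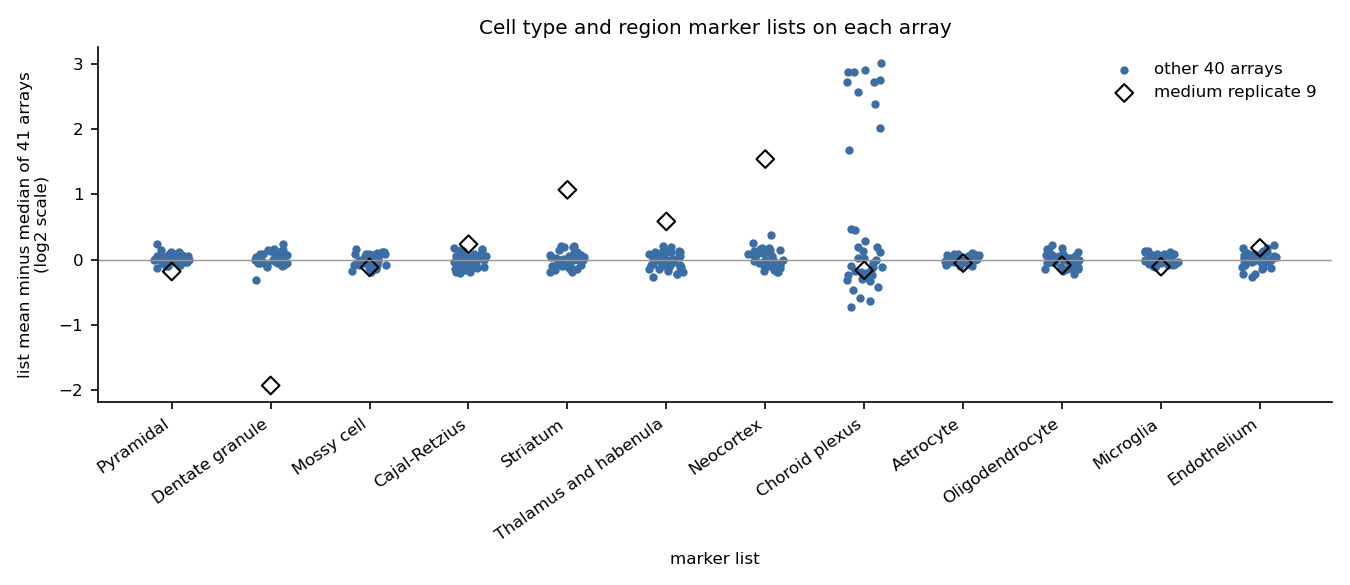
Mean level of 12 cell type and region marker lists on each array, as the difference from the median of the 41 arrays (log2 scale); points are arrays and the open diamond is medium replicate 9. The diamond lies below all points for dentate granule markers (6.15 against 7.75 to 8.31) and, more narrowly, for pyramidal markers. It lies above them for neocortex, striatum, thalamus and habenula, and Cajal-Retzius markers.

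No interneuron marker passed the test between ranked groups. In high against low mice 0 of 12 probe sets passed limma's test at an adjusted p of 0.05, beside 0.00888% of all tested probe sets. In high against medium mice 0 of 12 passed beside 0.0311%, a share that rests on 7 probe sets and ran from 0 to 16 of them with 1 array left out, and in medium against low mice 0 of 12 passed beside 0%. The moderated F test over the 3 ranked groups also called 0 of 12, beside 0.00888%, and that over 4 groups with the inconsistent mice called 0 of 12, beside 0.00444%. At an unadjusted limma p under 0.05 there were 0, 2 and 1 member probe sets in the 3 contrasts, of 1839, 2979 and 701 probe sets in all. The arrays of the compared groups overlapped for every member probe set, where 0.502% of all probe sets did not overlap between high and low, 0.395% between high and medium and 0% between medium and low.

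The differences were small on the log2 scale. They ran from -0.11 to 0.12 in high against low mice, with standard errors of 0.05 to 0.18 and limma adjusted p from 0.702 to 0.992. In high against medium mice they ran from -0.13 to 0.12, at adjusted p from 0.294 to 0.975. In medium against low mice they ran from -0.05 to 0.22, at adjusted p from 0.998 to 0.999. The median over the 12 probe sets was 0.04 in high against low mice, beside 0.0050 over all tested probe sets, and 8 of the 12 lay above 0, beside 52.0% of all. Without the choroid-bright arrays the median was 0.0046 beside 0.0045 and 6 of 12 lay above 0. After centring arrays on their median in place of quantile normalization it was 0.10 beside 0.04, and 11 of 12 lay above 0 beside 64.0% of all. The intervals do not show equal levels: the widest, that of Vip, ran from -0.26 to 0.49 in high against low mice and those of the other members lay between -0.29 and 0.30.

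**Figure D2:**
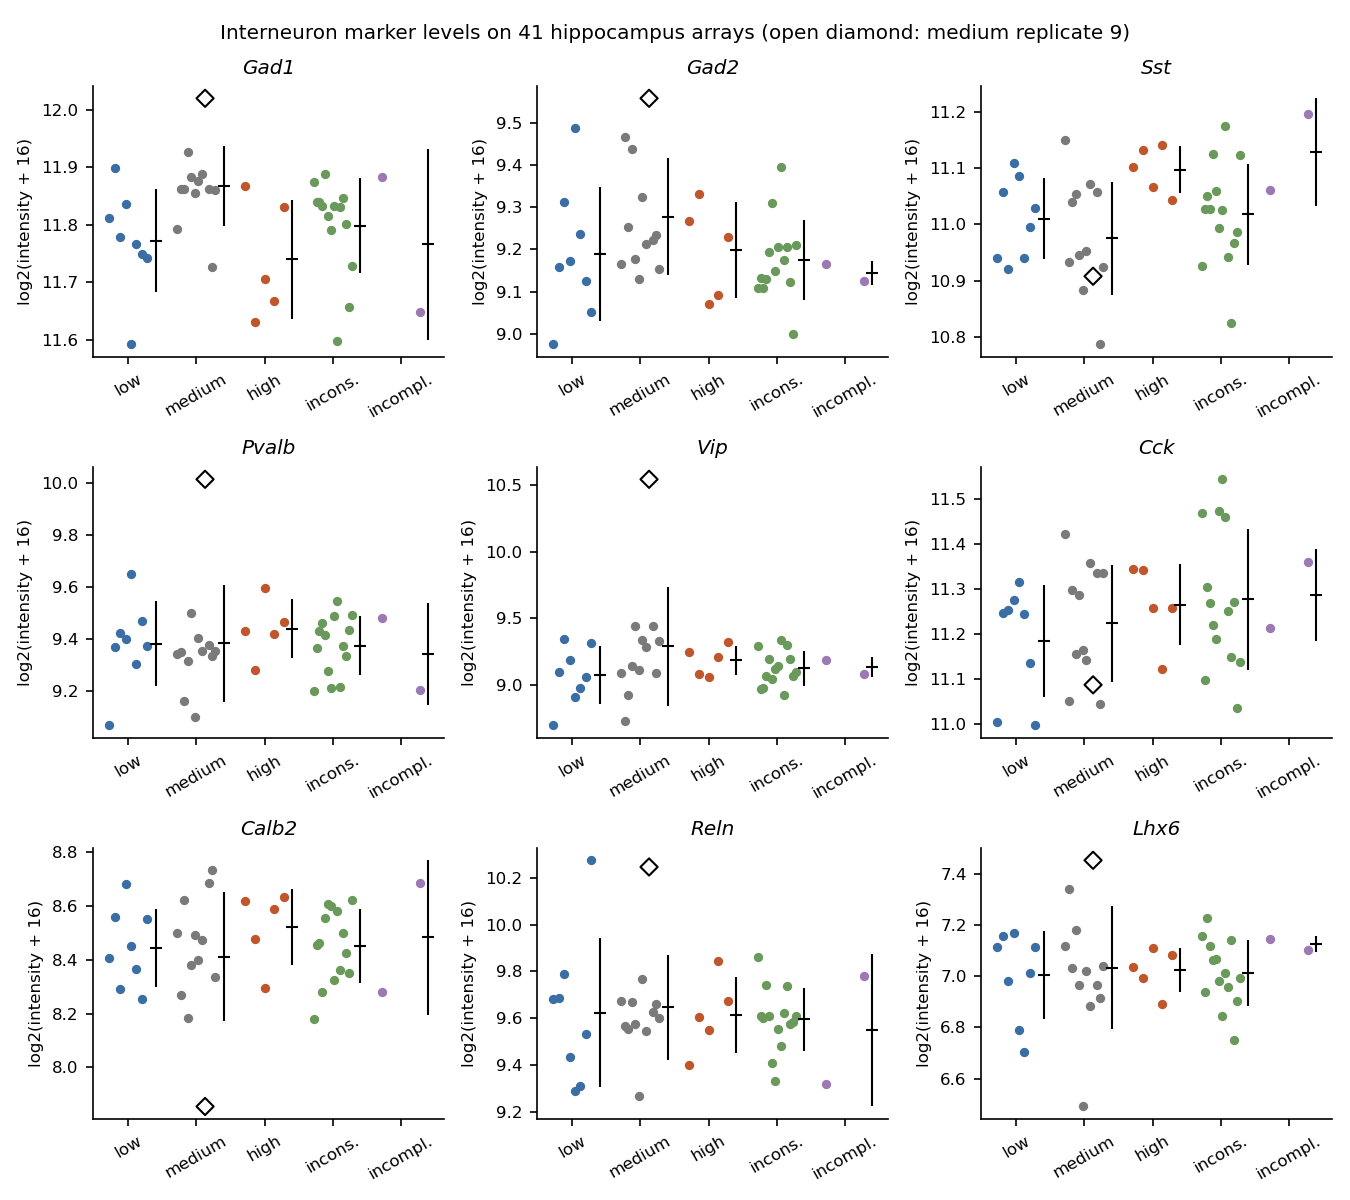
Level of the brightest probe set of each gene (log2(intensity + 16), vertical axis) by group; points are arrays, bars give the mean and SD, and the open diamond is medium replicate 9. The ranked groups overlap in every panel, and the diamond at 10.54 for Vip and 10.01 for Pvalb lies above all other arrays.

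Gad1 encodes GAD67, the decarboxylase that makes most of the GABA in the brain. Its brighter probe set, 1416561_at, read 11.87, 11.63, 11.71, 11.67 and 11.83 on the 5 high arrays. In the medium group it ran from 11.73 through a median of 11.86 to 12.02, and in the low group from 11.59 through 11.77 to 11.90. High arrays were thus spread over the range of the low arrays, while 5 of 12 medium arrays stood above the highest high array and 7 within the high range. The inconsistent arrays ran from 11.60 to 11.89. The high mean of 11.74 ± 0.10 (SD, n = 5) lay below the medium mean of 11.87 ± 0.07 (SD, n = 12), a difference of -0.13 ± 0.05 (SE) with a limma adjusted p of 0.294 and a fold of 0.915. By a two-sided exact permutation test of this gene alone the unadjusted p was 0.00614, 1 of 27 such tests over the 9 genes and 3 contrasts. Medium against low mice gave 0.10 ± 0.04, at a limma adjusted p of 0.998 and an unadjusted exact permutation p of 0.0112. With medium replicate 9 left out the differences were -0.11 and 0.08. High minus medium was -0.12 with the spike-in cluster as a block, -0.04 within the cluster of 10 arrays, which holds 1 high array, and -0.13 within that of 23.

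The second Gad1 probe set, 1416562_at, did not show these differences. It read 10.24 ± 0.11 (SD, n = 8) in low mice, 10.22 ± 0.08 (SD, n = 12) in medium mice and 10.23 ± 0.06 (SD, n = 5) in high mice, and high minus medium was 0.01 ± 0.05 (SE). Across the 41 arrays the probe sets of Gad1 had a Pearson r of -0.04 (permutation p 0.801) and a Spearman rho of -0.16 (permutation p 0.310). The other genes with a second probe set gave values near 0 as well: r was -0.09 for Gad2, -0.19 for Lhx6 and 0.16 for Reln, each at an adjusted permutation p of 0.640 or more over 4 relations. For Gad2 rho was 0.12, and r was 0.13 without medium replicate 9, so its sign turned with that array. The small differences of the brighter Gad1 probe set between groups were thus not matched by its partner. For Reln and Lhx6 the second probe set was dim, with means of 4.70 and 5.85 over 41 arrays. A low r with such a partner cannot show whether a difference was matched. Gad1's brighter probe set had a smaller SD over arrays than most, with 8.16% of tested probe sets below it. Its mean level was above that of 98.3% of tested probe sets, and SDs were not compared at like brightness.

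Gad2 encodes GAD65, the decarboxylase concentrated at synaptic terminals. Its brighter probe set, 1429589_at, averaged 9.19 ± 0.16 (SD, n = 8) in low, 9.28 ± 0.14 (SD, n = 12) in medium and 9.20 ± 0.11 (SD, n = 5) in high mice. Over all 41 arrays it ran from 8.97 to 9.56, with medium replicate 9 the highest. On that array the second Gad2 probe set, 1421978_at, was the lowest of all at 7.71, where the others began at 7.87. The probe sets of Gad2 thus lay at opposite ends of their ranges on this array.

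Sst encodes somatostatin, the peptide of dendrite-targeting interneurons such as those of the stratum oriens. Probe set 1417954_at read 11.10, 11.13, 11.07, 11.14 and 11.04 on the high arrays. The medium group ran from 10.79 through a median of 10.95 to 11.15, and the low group from 10.92 through 11.01 to 11.11. The high arrays were close together and near the top, and 8 of 12 medium and 5 of 8 low arrays lay below the lowest of them. The means were 11.01 ± 0.07 (SD, n = 8) in low mice, 10.98 ± 0.10 (SD, n = 12) in medium mice and 11.10 ± 0.04 (SD, n = 5) in high mice. High minus medium was 0.12 ± 0.05 (SE), a fold of 1.09, at a limma adjusted p of 0.319. High minus low was 0.09 ± 0.06 (SE), a fold of 1.06, at a limma adjusted p of 0.702. The unadjusted exact permutation p were 0.0246 and 0.0357. High minus medium was 0.13 with the spike-in cluster as a block, 0.15 within the cluster of 10 arrays and 0.12 within that of 23.

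Choroid plexus markers, 10 of 11 measured, were set beside this difference, and no high array was among the bright ones. Their mean level ran from 5.73 to 6.08 in high, 5.61 to 9.10 in medium and 5.47 to 9.20 in low mice. Without the 11 choroid-bright arrays, high minus medium in Sst was 0.08 ± 0.05 (SE) and high minus low 0.06 ± 0.06 (SE), at limma adjusted p of 0.596 and 0.926. Sst itself ran from 10.79 through a median of 10.94 to 11.06 on the bright arrays and from 10.82 through 11.06 to 11.20 on the other 30. Within the bright arrays r between Sst and the choroid list was -0.03 (permutation p 0.932, rho -0.05), and within the other 30 it was -0.21 (permutation p 0.257, rho -0.37 at p 0.0460). These p were adjusted over 4 relations, those of Sst and Cck in both sets of arrays. For Sst they became 0.932 and 0.514 for r, and the smaller p of rho became 0.184. For Cck r was -0.64 within the bright arrays (permutation p 0.0281, adjusted 0.113). Within the other 30 it was -0.16 (permutation p 0.398, adjusted 0.531). The part of choroid tissue in the difference of Sst between groups was not tested further.

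Pvalb encodes parvalbumin, the calcium-binding protein of fast-spiking basket cells. Probe set 1417653_at read 9.43, 9.28, 9.60, 9.42 and 9.47 on the high arrays, and ran from 9.07 to 9.65 in the low group. In the medium group it ran from 9.10 through a median of 9.35 to 10.01. The highest value belonged to medium replicate 9, and the other 11 medium arrays ended at 9.50. High minus low was 0.06 ± 0.10 (SE), at a limma adjusted p of 0.928. High minus medium was 0.06 ± 0.10 with that array and 0.11 ± 0.07 without it, at limma adjusted p of 0.844 and 0.513.

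Vip encodes vasoactive intestinal peptide, which marks interneurons that mostly inhibit other interneurons. Probe set 1428664_at read 9.25, 9.08, 9.06, 9.21 and 9.32 on the high arrays. It ran from 8.70 through a median of 9.08 to 9.35 in the low group and from 8.73 through 9.21 to 10.54 in the medium group. Medium replicate 9 held the top value again, and no other array of the 41 passed 9.44. The medium SD was 0.45 with it and 0.22 without it. Vip had a larger SD over the 41 arrays than 92.4% of tested probe sets, a share that fell to 59.3% on the other 40. Medium minus low was 0.22 ± 0.15 (SE) with that array and 0.10 ± 0.09 without it, at limma adjusted p of 0.998 and 1.00. High minus medium went from -0.10 ± 0.17 to 0.01 ± 0.10, so its sign rested on that array.

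Cck encodes cholecystokinin, a peptide of a class of basket cells and also of pyramidal cells. Probe set 1419473_a_at averaged 11.18 ± 0.12 (SD, n = 8) in low, 11.22 ± 0.13 (SD, n = 12) in medium and 11.27 ± 0.09 (SD, n = 5) in high mice. Inconsistently ranked mice averaged 11.28 ± 0.16 (SD, n = 14). Single arrays ran from 11.00 to 11.54, and high minus low was 0.08 ± 0.07 (SE) at a limma adjusted p of 0.806.

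Calb2 encodes calretinin, the calcium-binding protein of interneuron-selective cells and of mouse mossy cells. Probe set 1451129_at averaged 8.44 ± 0.14 (SD, n = 8) in low, 8.41 ± 0.24 (SD, n = 12) in medium and 8.52 ± 0.14 (SD, n = 5) in high mice. Medium replicate 9 was the lowest of all arrays at 7.86, and the next began at 8.18. High minus low was 0.08 ± 0.11 (SE) at a limma adjusted p of 0.894.

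Reln encodes reelin, the secreted glycoprotein that guides neuronal layering and is made in the adult by interneurons and Cajal-Retzius cells. Probe set 1449465_at averaged 9.63 ± 0.32 (SD, n = 8) in low, 9.65 ± 0.22 (SD, n = 12) in medium and 9.61 ± 0.16 (SD, n = 5) in high mice. Low replicate 8 at 10.27 and medium replicate 9 at 10.25 were the highest, and the highest of the remaining arrays stood at 9.86 in the inconsistent group. High minus low was -0.01 ± 0.13 (SE) at a limma adjusted p of 0.992. The other Reln probe set, 1458020_at, ran from 4.17 to 5.14 and was too dim for the test.

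Lhx6 encodes the homeodomain factor of interneurons born in the medial ganglionic eminence, among them the Sst and Pvalb classes. Its brighter probe set, 1425094_a_at, averaged 7.01 ± 0.17 (SD, n = 8) in low, 7.03 ± 0.24 (SD, n = 12) in medium and 7.02 ± 0.09 (SD, n = 5) in high mice. Medium replicate 9 was highest at 7.45 and another medium array lowest at 6.49. High minus low was 0.02 ± 0.11 (SE) by this probe set and -0.11 ± 0.08 by the dimmer 1422262_a_at, at limma adjusted p of 0.980 and 0.759.

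**Figure D3:**
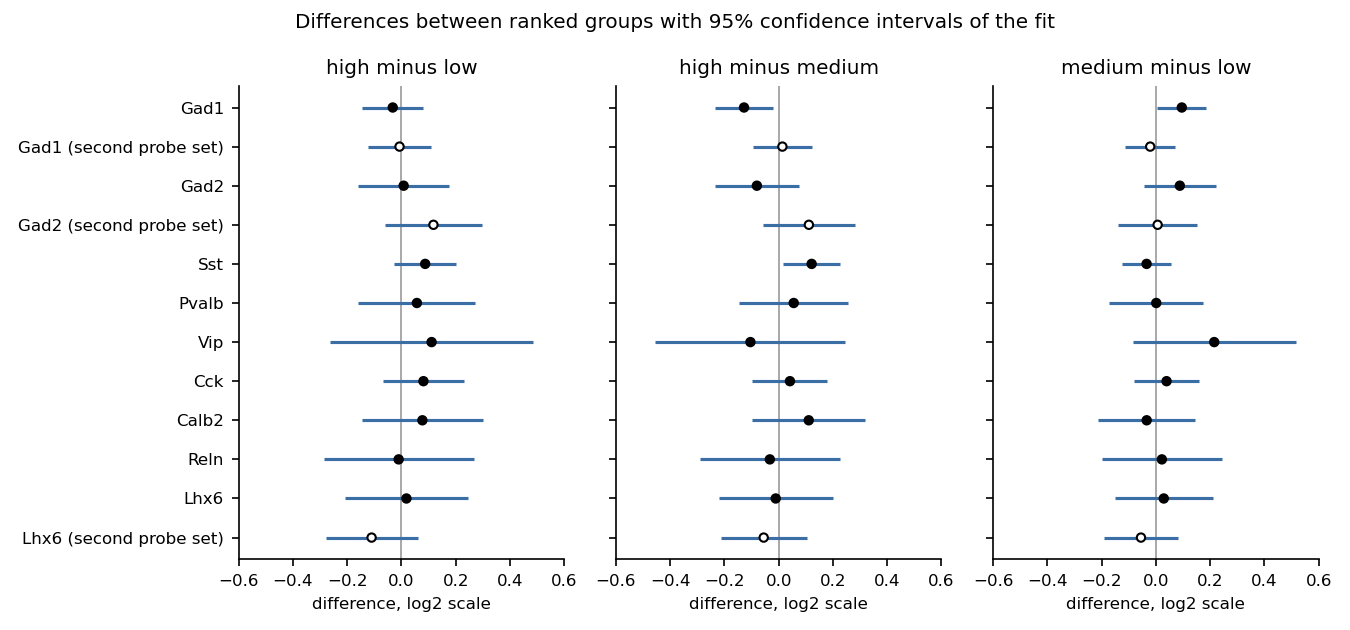
Difference between group means (log2 scale, horizontal axis) of the 12 tested probe sets in the 3 contrasts; points are estimates, filled for the brightest probe set of a gene and open for a second one, and lines are 95% confidence intervals. The estimates lie between -0.13 and 0.22, and the lines that leave out 0 are those of Gad1 and Sst in high minus medium and of Gad1 in medium minus low, before adjustment over all probe sets.

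On medium replicate 9 the members moved in both directions. Of the 12 tested probe sets 7 lay outside the range of the other 40 arrays, beside 30.7% of all tested probe sets. On the other arrays that share of all probe sets ran from 1.39% to 22.3%, the latter on low replicate 5, with a median of 3.39%. Vip, Pvalb, Gad1, the brighter Gad2 and the brighter Lhx6 probe sets were above all other arrays. Calb2 and the second Gad2 probe set were below them. Sst at 10.91 and Cck at 11.09 were within the range, and so were Reln, the second Lhx6 and the second Gad1 probe set.

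Co-variation across arrays asked whether the markers rise and fall together from mouse to mouse. Over the 36 pairs of genes the median Pearson r across the 41 arrays was 0.08, and 22 were above 0. After adjustment over 36 pairs 4 passed by the permutation p of r, all above 0, and 0 passed by Spearman's rho. No such counts were made for pairs of other genes, and shares of all probe sets are given with the slopes below. Vip rose with Pvalb (r = 0.64, adjusted permutation p 0.0252; rho = 0.32, adjusted permutation p 0.230). Reln rose with Vip (r = 0.52, adjusted permutation p 0.0383; rho = 0.32, adjusted 0.230) and with Lhx6 (r = 0.50, adjusted permutation p 0.0277; rho = 0.36, adjusted 0.193). Gad2 rose with Pvalb, at r = 0.44 (adjusted permutation p 0.0384) and rho = 0.14 (adjusted 0.681). Each gene was read here by its brightest probe set alone, and second probe sets of Gad2 and Lhx6 are given with the slopes.

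None of these 4 relations passed without medium replicate 9. When it was left out r was 0.30 for Pvalb and Vip, 0.26 for Vip and Reln, 0.38 for Reln and Lhx6 and 0.24 for Gad2 and Pvalb, and 0 of 36 pairs passed by r or rho. Of single arrays left out in turn, low replicate 5 left 1 pair past the threshold and medium replicate 2 left 7. With 1 array other than medium replicate 9 left out, the highest adjusted permutation p was 0.0657 for Reln and Lhx6. It was 0.0691 for Vip and Reln, 0.0732 for Gad2 and Pvalb and 0.0463 for Pvalb and Vip. With the 11 choroid-bright arrays left out 13 pairs passed, and with medium replicate 9 left out as well 0 did. Before normalization, where whole arrays differ in brightness, 36 of 36 passed, and after centring each array on its median 27 did. The median r over the 40 arrays was 0.03, the lowest -0.32 for Gad1 with Sst and the highest 0.38 for Reln with Lhx6. Without the 2 arrays farthest from the median of the first gene, which included this array in each case, r was 0.17, 0.32, 0.40 and 0.11 in the order Pvalb with Vip, Vip with Reln, Reln with Lhx6 and Gad2 with Pvalb. Within the largest spike-in cluster of 23 arrays, which does not hold that array, r was 0.27, 0.36, 0.49 and -0.01, and 0 of 36 pairs passed. The cluster of 10 arrays that holds it was not read without it, and there the same pairs gave 0.94, 0.86, 0.70 and 0.66. In the remaining cluster of 8 arrays they gave 0.52, -0.19, 0.40 and 0.62.

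The decarboxylases Gad1 and Gad2, which share the same cells, had an r of 0.13 (permutation p 0.425, adjusted 0.568; rho = 0.19) over 41 arrays and -0.04 over 40. Lhx6, made in the Sst and Pvalb classes, had an r of 0.10 with Sst and 0.32 with Pvalb, which were 0.20 and 0.08 without medium replicate 9. Sst had an r of 0.37 with Cck (rho = 0.36) and of 0.37 with Calb2 (rho = 0.44), each at an adjusted permutation p of 0.0715 by r. With Vip its r was -0.13 over 41 arrays and 0.03 without medium replicate 9. None of the pairs among Sst, Vip and Cck, the peptide genes whose promoters are printed above, passed.

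**Figure D4:**
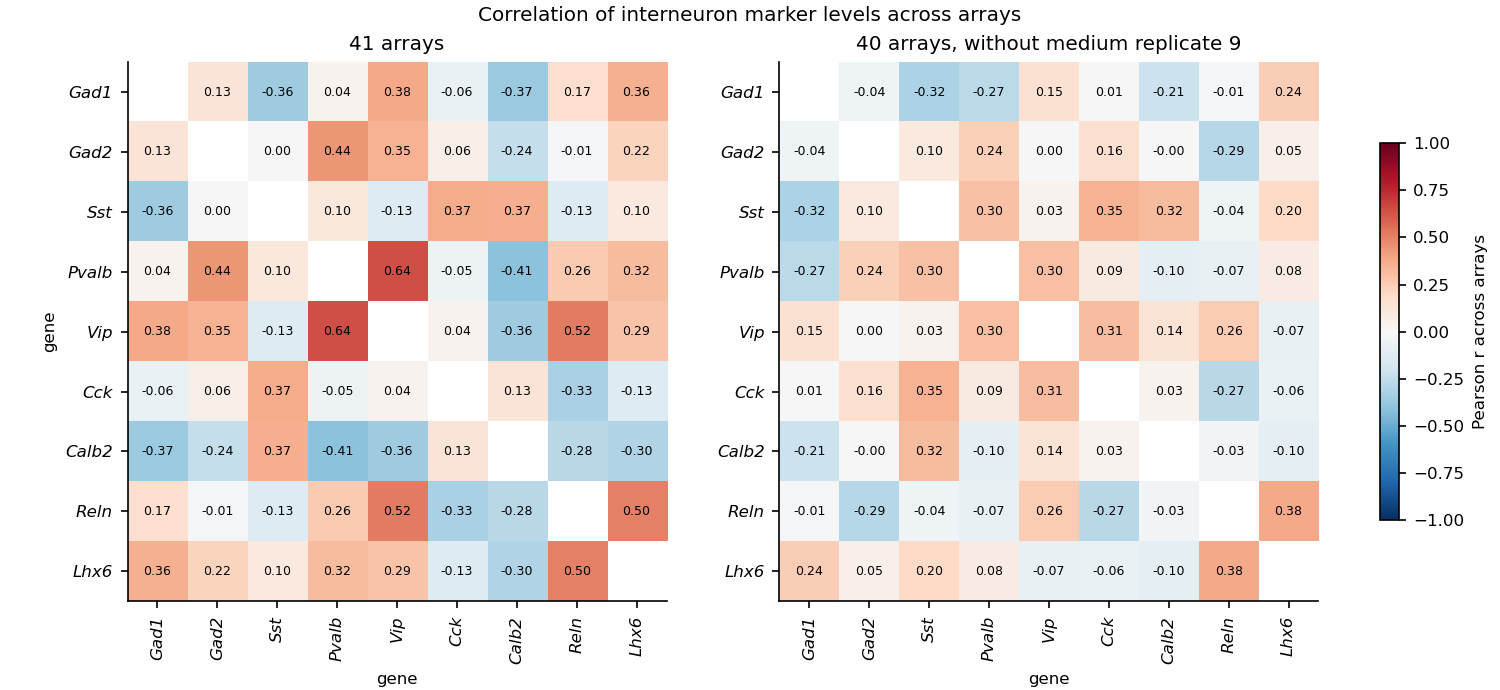
Pearson r between the brightest probe sets of each pair of the 9 genes across 41 arrays (left) and across the 40 arrays without medium replicate 9 (right); red is positive and blue negative on a scale from -1 to 1. The r of Pvalb with Vip is 0.64 on the left and 0.30 on the right.

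Slopes over each member were also fitted for all 22518 other tested probe sets. Over Gad1 0 of the 11 other member probe sets passed limma's test, the second Gad1 probe set among them, beside 6.08% of all probe sets. Over Vip 2 members passed, Pvalb and Reln, beside 15.6% of all. Over Reln 2 passed, Vip and the brighter Lhx6 probe set, beside 9.27%. The dimmer Lhx6 probe set had a slope of -0.06 over Reln, at a limma adjusted p of 0.830. Over Pvalb 1 passed, Vip, beside 7.05%, and over Lhx6 1 passed, Reln, beside 2.03%. The Gad2 probe sets differed in sign over Pvalb. The brighter had a slope of 0.35 and the second -0.20, at limma adjusted p of 0.0557 and 0.482. Over Gad2, Sst, Cck and Calb2 0 members passed, beside 2.41%, 0.835%, 0.44% and 4.32%. On the 40 arrays without medium replicate 9 no member passed over any other. The shares of all probe sets were then 3.08% over Gad1, 0.306% over Gad2, 0.844% over Sst, 0.617% over Cck, 0.0355% over Vip, 2.06% over Reln and 0% over each of Pvalb, Calb2 and Lhx6.

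Levels of the members were set against 12 marker lists and the 3′ to 5′ differences of Actb and Gapdh, 126 relations in all. Over 41 arrays 23 passed after adjustment by r and 6 by rho, and over the 40 arrays without medium replicate 9 10 and 2 did. The share of other probe sets passing against the same lists was not computed, so these counts are not particular to the members. Reln was higher where the 7 measured neocortex markers were higher, with r = 0.73 over 41 arrays (adjusted permutation p 0.00063, from the smallest p that the permutations can give) and rho = 0.66 (adjusted permutation p 0.00126). With medium replicate 9 left out r was 0.73 and rho 0.63. Without low replicate 8 and medium replicate 9, the 2 arrays with the highest neocortex list, r was 0.65. Within the spike-in clusters of 8, 10 and 23 arrays it was 0.44, 0.88 (0.74 without medium replicate 9) and 0.78. Low replicate 8 had a neocortex list mean of 8.32 beside its Reln level of 10.27.

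Vip was higher where the 3′ end of Actb was brighter than its 5′ end (r = 0.84, adjusted permutation p 0.00063; rho = 0.49, adjusted permutation p 0.0340). On the other 40 arrays r was 0.48 (adjusted permutation p 0.0342), and within the cluster of 23 arrays it was 0.13. On the same 40 arrays Vip had an r of -0.47 with the Gapdh difference (adjusted permutation p 0.0342; rho = -0.45, adjusted permutation p 0.0551), and of -0.06 after centring on spike-in clusters. The part of RNA quality in the Vip level was not tested.

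The brighter Gad1 probe set was lower where the mean of 7 microglia genes was higher. This gave r = -0.50 (adjusted permutation p 0.0161) and rho = -0.53 (adjusted permutation p 0.0214). Without medium replicate 9 r was -0.45 (adjusted permutation p 0.0450) and rho -0.50 (adjusted permutation p 0.0521), and within the clusters r was 0.05, -0.73 (-0.46 without medium replicate 9) and -0.45. The microglia list ran from 8.58 to 8.73 in high, 8.50 to 8.70 in medium and 8.53 to 8.76 in low mice. Its part in the difference of Gad1 between high and medium mice was not tested.

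Sst was lower where 7 oligodendrocyte genes were higher, at r = -0.44 (adjusted permutation p 0.0346) and rho = -0.39 (adjusted permutation p 0.114), and at r = -0.48 without medium replicate 9. Within the clusters r was -0.71, -0.39 (-0.64 without medium replicate 9) and -0.46. Cck was higher with dentate granule markers: r was 0.33 (adjusted permutation p 0.0951) and rho 0.49 (adjusted permutation p 0.0340) over 41 arrays, and r was 0.50 (adjusted permutation p 0.0342) without medium replicate 9. Within the clusters it was 0.70, 0.59 (0.38 without medium replicate 9) and 0.50. Reln was lower where dentate granule markers were higher (r = -0.59, adjusted permutation p 0.00630; rho = -0.37, adjusted permutation p 0.157), and r was -0.23 without medium replicate 9 and low replicate 8. Within the clusters it was -0.09, -0.82 (-0.46 without medium replicate 9) and -0.69. Lhx6 was lower where striatum markers were higher once medium replicate 9 was left out (r = -0.46, adjusted permutation p 0.0383; rho = -0.49, adjusted permutation p 0.0526), and r was 0.12 with it. Within the clusters of 8 and 23 arrays r was -0.19 and -0.59, and within that of 10 it was 0.47 with that array and -0.49 without it.

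**Figure D5:**
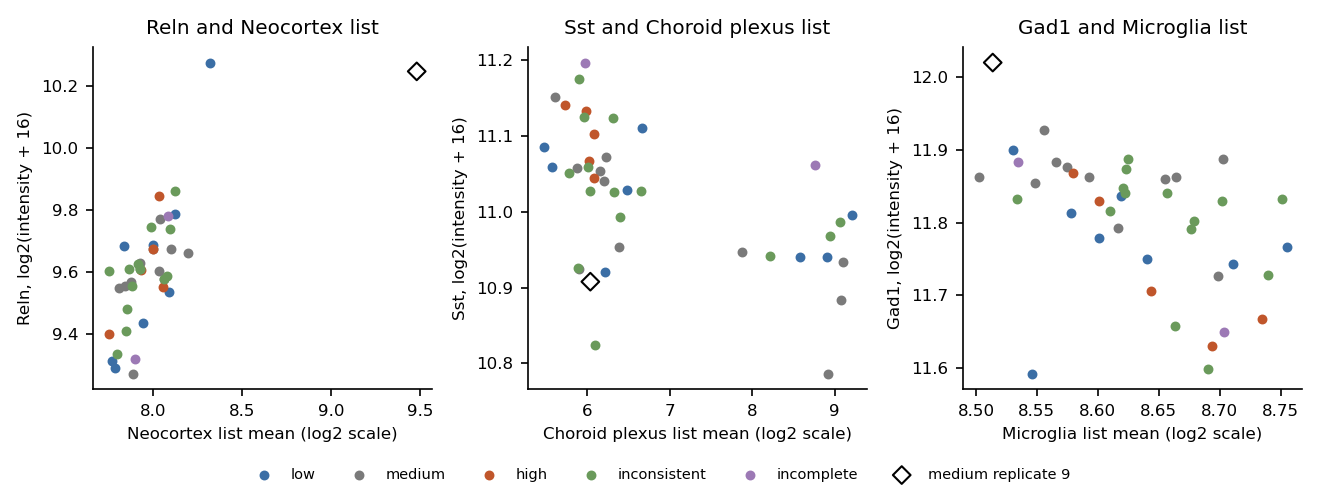
Reln against the neocortex list mean, Sst against the choroid plexus list mean and Gad1 against the microglia list mean, each point an array coloured by group and the open diamond medium replicate 9 (log2 scales on both axes). Reln rises with the neocortex list (r = 0.73), choroid list means fall into a group up to 6.66 and a group from 7.88, and Gad1 falls with the microglia list (r = -0.50).

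The genes whose levels were most like each member's were taken by Pearson r across the 41 arrays after centring on spike-in clusters, as a description. For Reln they were Prkg2 (0.84), Dpp10 (0.84), Gabra3 (0.84), Adcy8 (0.81) and Mef2c (0.81). Gabra3 encodes a GABA-A receptor subunit, and Mef2c is 1 of the 7 neocortex genes used above. Without medium replicate 9 and after the same centring these values were 0.80, 0.79, 0.77, 0.74 and 0.77. For Gad2 they were Arid1a (0.75), the presynaptic scaffold gene Bsn (0.74), Slc27a4 (0.72), the synaptotagmin Syt13 (0.68) and Scrt1 (0.66), and without that array 0.71, 0.70, 0.66, 0.61 and 0.59. For Gad1 they were Eif4h (0.68), Mapre2 (0.68), Csrnp3 (0.68), Actg1 (0.67) and Socs7 (0.67), and without it 0.70, 0.65, 0.64, 0.68 and 0.70.

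For Sst the list was Acot13 (0.77), the mitochondrial ribosome gene Mrps24 (0.74), the splicing gene Bud31 (0.72), Nop10 (0.69) and Pop5 (0.69). For Cck it was the ribosomal gene Rpl27 (0.73), Stom (0.68), Nrip2 (0.65), Psip1 (0.64) and Fndc5 (0.63). Neither list held another interneuron marker. For Vip it was Doc2a (0.84), Tspyl3 (0.84), Lamp5 (0.83), Krt12 (0.83) and Rasgef1b (0.82), and these fell to 0.53, 0.63, 0.33, 0.49 and 0.39 without medium replicate 9. Lamp5 marks neurogliaform interneurons and is also among the neocortex genes. Pvalb had Arpp19 (0.76), Lrrc3b (0.74), Zfyve9 (0.71), Medag (0.70) and Vip (0.70), which fell to 0.58, 0.59, 0.54, 0.53 and 0.43. Calb2 had the deiodinase gene Dio2 (0.73), H2aj (0.68), Chst9 (0.68), Slc14a1 (0.67) and Lats2 (0.67), which fell to 0.59, 0.54, 0.52, 0.48 and 0.51. Lhx6 had Asxl1 (0.68), Stk24 (0.67), Dclk1 (0.66), Kcnf1 (0.66) and Cdk5r1 (0.65), which fell to 0.62, 0.63, 0.56, 0.56 and 0.55. The values of Sst ran from 0.68 to 0.80 and those of Cck from 0.63 to 0.73 when the same array was left out.

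Other genes of inhibitory neurons were described from 5 lists, and 0 of their measured genes passed limma's test in any contrast or in the F test over 3 groups. Beside the list values below, 52.0% of all tested probe sets were above 0 in high against low mice and their median was 0.0050. Of 8 genes listed for GABA synthesis, transport and breakdown 6 were measured. Their median in high against low mice was -0.07, and 1 of them was above 0. Among these 6 was Phgdh, a gene of serine synthesis and not of GABA itself, at -0.0083. Slc32a1, the vesicular GABA transporter, had means of 8.29 ± 0.31 (SD, n = 8) in low, 8.42 ± 0.25 (SD, n = 12) in medium and 8.12 ± 0.15 (SD, n = 5) in high mice, and its F test had a limma adjusted p of 0.623. Of 19 interneuron transcription factors 10 were measured, 3 above 0, with a median of -0.03. Of 23 further subtype markers 21 were measured, 12 above 0, with a median of 0.04. Of 14 genes of fast-spiking cells 10 were measured, 7 above 0, with a median of 0.03. Of 13 receptors and partners of the members 8 were measured, 4 above 0, with a median of -0.02.

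Within these lists the smallest F test p belonged to Id2, an inhibitor of helix-loop-helix factors (unadjusted 0.00798, limma adjusted 0.427), and to Dlx6os1, a transcript antisense to the forebrain factor gene Dlx6 (unadjusted 0.0179, limma adjusted 0.474). Dlx6os1 differed by 0.24 ± 0.09 (SE) in high against low mice. Hapln1, a link protein of perineuronal nets, differed by 0.24 ± 0.09 (SE) at a limma adjusted p of 0.550. Across the 41 arrays the genes of these lists with the largest r with Gad1 were the fast-spiking potassium channel gene Kcnc2 (r = 0.74), Slc32a1 (0.59) and, in the opposite direction, the chemokine gene Cxcl14 (-0.63) and the serotonin receptor gene Htr3a (-0.54). On the 40 arrays these values were 0.69, 0.50, -0.66 and -0.47. Cnr1, from the list of further subtype markers, had an r of 0.36 on 41 arrays and of 0.64 on the 40, above that of Slc32a1.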

How the data were processed

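Expression arrays of 41 mouse hippocampi were read as 1 table of linear probe set intensities, as deposited by the authors, with values from 0.0112 to 13549. Partek and RMA are named, without versions or order, per the submitters' processing notes. Which of them produced the linear scale is not given in the sources. Intensities were quantile normalized over all arrays and used as log2(intensity + 16), computed here from the deposited values. Probe sets with a mean intensity under the median of 38.4 were left out, as were 64 array controls. Symbols came from the platform annotation: 34945 probe sets had 1 symbol, 932 several and 9160 none, and no member was in a probe set with several.

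Groups were compared on the 25 ranked arrays with limma 3.58.1 in R 4.3.3 (lmFit and eBayes, Benjamini-Hochberg adjusted p under 0.05 over 22519 probe sets). F tests used 3 groups, or 4 groups on 39 arrays, and slopes over a member used all 41. Single genes were also tested by exact permutation. Correlations used 100000 permutations, adjusted over the pairs or relations stated, in Python 3.11.15 with numpy 2.4.6, scipy 1.17.1 and pandas 2.3.3. The smallest p these permutations can give is 1e-05. Spike-in clusters came from Ward clustering of 45 control probe sets, with the number of clusters chosen after the data were seen. Mouse inconsistent replicate 2 is also described as medium and was kept as inconsistent. The number of arrays limits the precision.

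All probe sets of each member were described, the brightest first. For likeness, the 5 genes with the highest cluster-centred r were named, and of the further lists those with the smallest F test p or the largest r with Gad1. Members and lists were chosen with earlier results of these data known. The fit was tested on simulated data with independent noise and shifts larger than any difference of a member between groups. It cannot show whether differences as small as those of the members would be found.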

Additional observations from a re-analysis of the deposited data

How the results depend on the processing

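In 207 alternative counts over the 3 contrasts and both F tests, 0 member probe sets passed. These covered filters, normalization, offsets, variance models, array weights, arrays in the fit, spike-in terms and arrays left out. Cluster 1 holds no high array and gave only medium against low, and the fits on 2 groups or all 41 arrays gave no F test. Of 239 alternative values of 14 member differences, arrays left out singly aside, 15 had the other sign and 0 passed. In high against low mice Gad1 was 0.069 after median centring and 0.060 within cluster 2, Reln 0.056 after median centring, and Vip -0.019 within cluster 2. Gad2 was -0.036 without normalization and -0.038 without choroid-bright arrays, where Pvalb was -0.0045. Lhx6 was -0.080 without normalization, -0.014 with array weights, -0.036 within cluster 2 and -0.019 without choroid-bright arrays. Sst in high against medium mice was -0.0033 without normalization. With 1 array left out, high against low ran from -0.026 to 0.051 for Gad2, -0.067 to 0.082 for Reln and -0.025 to 0.051 for Lhx6, and high against medium from -0.16 to 0.010 for Vip. The cause was not tested. Without normalization the median over all probe sets in high against medium mice was -0.17 and that of the members -0.16. Of all 22519 probe sets 7 passed in that contrast, 0 to 16 with 1 array left out, 357 with array weights, 23 in the fit on 41 arrays, 15 with a trend and robust variances, and 0 with the replicate block, in fits on 2 groups, under both other scalings or without choroid-bright arrays.

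Over Gad1, 11 of the 11 other member probe sets, its own second one included, passed without normalization, beside 99.6% of all probe sets. After median centring 8 passed, beside 46.4%, and 0 to 1 with 1 array left out (1 without medium replicate 6 or inconsistent replicate 9). Of 36 pairs 36 passed without normalization, 27 after median centring, 2 with the spike-in cluster as a block, 1 in cluster 1, 0 in cluster 3, 13 without choroid-bright arrays and 0 without these and medium replicate 9. With 1 array left out 0 to 7 passed (0 without medium replicate 9, 1 without low replicate 5, 7 without medium replicate 2). The r of Gad2 with Pvalb was -0.014 in cluster 3 and that of Vip with Reln -0.19 in cluster 1.

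Replicate numbers did not pair the mice. The median correlation of 18 same-numbered pairs was -0.02 and 1 of 15 arrays was closest to its own number. With the replicate block 1 of 36 pairs passed, high against low was -0.022 for Gad2 and -0.062 for Lhx6, high against medium was 0.10 for Vip, and no call between groups changed.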
